A study of Rattus norvegicus with 16 samples.

Results

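The genes described here act in the making of ribosomes, from transcription of the ribosomal RNA genes by RNA polymerase I to the processing of the small and the large subunit. A list of 40 gene symbols was matched to the gene names of the deposited count table, and 39 of its 32623 genes carried one of them, with Heatr1 not analysed here. The RNA came from NRK-52E, a line of epithelial cells of rat kidney that resembles the proximal tubule, and from NRK-49F, a fibroblast line from rat kidney, each of them 1 established line. The lines were held in indirect co-culture, with NRK-52E cells on filter inserts above NRK-49F cells in the same medium. After 24 h without serum they spent 48 h in medium of pH 7.4 (control) or pH 6.0 (acidosis), and were then processed separately. The sample labels write these media as pH 7 and pH 6, and the values of the study's methods are used here. Each of the 4 groups of cell line and pH had 4 libraries. That they came from separate cultures is not stated, so p-values measure the spread between these libraries, which may be technical.

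Ribosome production starts in the nucleolus, where RNA polymerase I copies the repeated ribosomal RNA genes into a long precursor. The factor Ubtf and the selectivity complex that holds Taf1b mark the promoter, Rrn3 brings the polymerase to it, and Myc raises the expression of many genes of the pathway. Small nucleolar ribonucleoproteins (snoRNPs) then modify the precursor, and large sets of assembly factors fold it, cut it and load it with ribosomal proteins, a process that takes a large share of a growing cell's energy.

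Totals of counted fragments were 17760185 to 20612657 for NRK-52E cells at pH 7.4, 16844811 to 23856187 for NRK-52E cells at pH 6.0, 17518187 to 27607214 for NRK-49F cells at pH 7.4 and 16201084 to 34784862 for NRK-49F cells at pH 6.0. Each of the 39 genes passed the filter on low counts in every comparison. The lowest count of any of them in any library was 111. Levels are given as FPM, the fragments of a gene scaled to the size of the library with the trimmed mean of M values (TMM), and are not corrected for gene length, so levels are compared between groups and not between genes. As shares of all counts, the 39 genes together took 0.351% and 0.381% in NRK-52E cells at pH 7.4 and pH 6.0, and 0.321% and 0.380% in NRK-49F cells.

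The identity of the lines was checked with 10 epithelial and 10 fibroblast markers. Pdgfra, a receptor of fibroblasts, measured 0.289 ± 0.112 FPM (mean ± SD, n = 4) in NRK-52E cells and 395 ± 56.2 FPM in NRK-49F cells at pH 7.4, and Col1a1 measured 23.7 ± 3.87 and 6256 ± 425 FPM. The junction gene Ocln measured 41.5 ± 1.97 FPM in NRK-52E cells and 0 in every NRK-49F library at pH 7.4. Krt8 (434 ± 30.9 FPM in NRK-52E and 854 ± 68.7 in NRK-49F cells) and Col3a1 (6268 ± 98.5 and 462 ± 103 FPM) went against the labelled types. So did 2 markers near 0, Pax8 (0.0103 ± 0.0207 FPM in NRK-52E and 0.777 ± 0.0985 in NRK-49F cells) and Dcn (0.723 ± 0.0770 and 0.473 ± 0.157 FPM). Thy1 and Esrp1 were at 0 in all 16 libraries, and Epcam, Krt18, Cldn4 and Cdh16 were below 1 FPM in every group. At pH 7.4 the means of Epcam, Cldn4 and Cdh16 were also higher in NRK-49F cells, by less than their SD there. That of Krt18 was higher in NRK-52E cells. Fibroblast markers summed to 7290.4, 7185, 6972 and 6854 FPM in the NRK-52E libraries at pH 7.4 and 3565, 3267, 2809 and 2215 at pH 6.0, with Col3a1 the most abundant. In NRK-49F libraries the sums were 14028, 14547, 14882 and 15337 at pH 7.4 and 12213, 11656, 12070.4 and 10362 at pH 6.0. Epithelial markers, nearly all of them Krt8, summed to 510.4, 474, 438 and 495 and, at pH 6.0, 364, 294, 325 and 306 FPM in NRK-52E cells. In NRK-49F cells they summed to 833, 795, 954 and 848 at pH 7.4 and 208, 221, 203 and 199.98 FPM at pH 6.0. The part of these marker changes in the results below was not tested.

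Between pH 7.4 and pH 6.0 some of the ribosome biogenesis genes differed in both directions in NRK-52E cells, and more of them were higher than lower in NRK-49F cells. A gene was called a DEG where edgeR and DESeq2 both gave an adjusted p (FDR, over all genes tested) below 0.01 with the same sign. In NRK-52E cells 14 of the 39 genes (35.9%) were higher at pH 6.0, beside 28.2% of all 13735 genes tested, and 7 (17.9%) were lower, beside 28.5%. In NRK-49F cells 20 (51.3%) were higher, beside 18.4% of 13339 genes tested, and 3 (7.69%) were lower, beside 19.4%. In both directions together 53.8% of the 39 genes were DEGs in NRK-52E cells, while 7793 of the 13735 genes tested were, a slightly larger share, and 18 of the 39 were not called. In NRK-49F cells 58.97% were DEGs, while 5039 of 13339 genes tested were, and 16 were not called. The median log2 fold change of the 39 genes was 0.12 in NRK-52E cells, beside 0.0014 for all genes tested, and 0.47 in NRK-49F cells, beside -0.0029. The range was from -1.39 to 1.72 in NRK-52E cells and from -1.01 to 1.93 in NRK-49F cells. The median size of change without regard to sign was 0.38 in NRK-52E cells, below the 0.70 of all genes tested, and 0.48 in NRK-49F cells, beside 0.42.

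The sign of the NRK-52E median depended on the scaling, which moved all genes alike. With library totals in place of TMM, the median of all genes in NRK-52E cells moved to -0.21 and that of the 39 genes to -0.09, with 8 higher and 10 lower. The median of the 39 genes lay 0.12 above that of all genes with TMM and 0.12 above it with library totals. By role, the counts higher and lower in NRK-52E cells with library totals were 1 and 3 of 8 (RNA polymerase I group), 2 and 0 of 6 (nucleolar proteins), 1 and 1 of 3 (box C/D), 1 and 1 of 4 (box H/ACA), 3 and 2 of 9 (small subunit) and 0 and 3 of 9 (large subunit). Over all genes tested the split moved from 3877 higher and 3916 lower to 2900 higher and 4815 lower. In NRK-49F cells the median of the 39 genes was 0.51 with library totals, with 22 higher and 3 lower. The names of the count columns carry a second number, its meaning unstated, which is 21 or 22 in NRK-52E and 20 or 21 in NRK-49F columns, and each number and pH has 2 libraries. Within the NRK-52E libraries of number 21, 8 genes were higher and 5 lower (median 0.09), and within number 22, 7 were higher and 2 lower (0.18). Within the NRK-49F libraries of number 20, 24 were higher and 3 lower (0.58), and within number 21, 4 were higher and 1 lower (0.33). The shares of all genes called within each number are not given here. Without these shares, the counts cannot tell whether a difference between the numbers is particular to the 39 genes. With these 2 libraries against 2, the calls lost in NRK-52E cells were Myc, Taf1b, Ncl, Nop56, Wdr43, Utp20, Nop16 and Wdr12 within number 21 and Myc, Taf1b, Ncl, Fbl, Nop56, Wdr43, Utp20, Rrp9, Nop16, Bop1, Wdr12 and Noc2l within number 22. In NRK-49F cells Utp15 lost its call within number 20, and Ubtf, Rrn3, Polr1b, Gnl3, Ddx21, Nop56, Nop58, Dkc1, Nhp2, Nop10, Gar1, Wdr43, Wdr75, Utp15, Nop14, Tsr1, Nop2 and Wdr12 within number 21. Without library N2 or without N6 of NRK-52E cells at pH 7.4, 9 genes rather than 14 were higher in that line. Library N16 of NRK-49F cells at pH 6.0, which had the lowest values of its group in many of these genes, changed the count too: without it 24 genes were higher and 3 lower in that line, with a median of 0.55. The shares of all genes called in these fits without 1 library are not given here. Whether the changed counts are particular to the 39 genes therefore cannot be told.

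**Figure D1:**
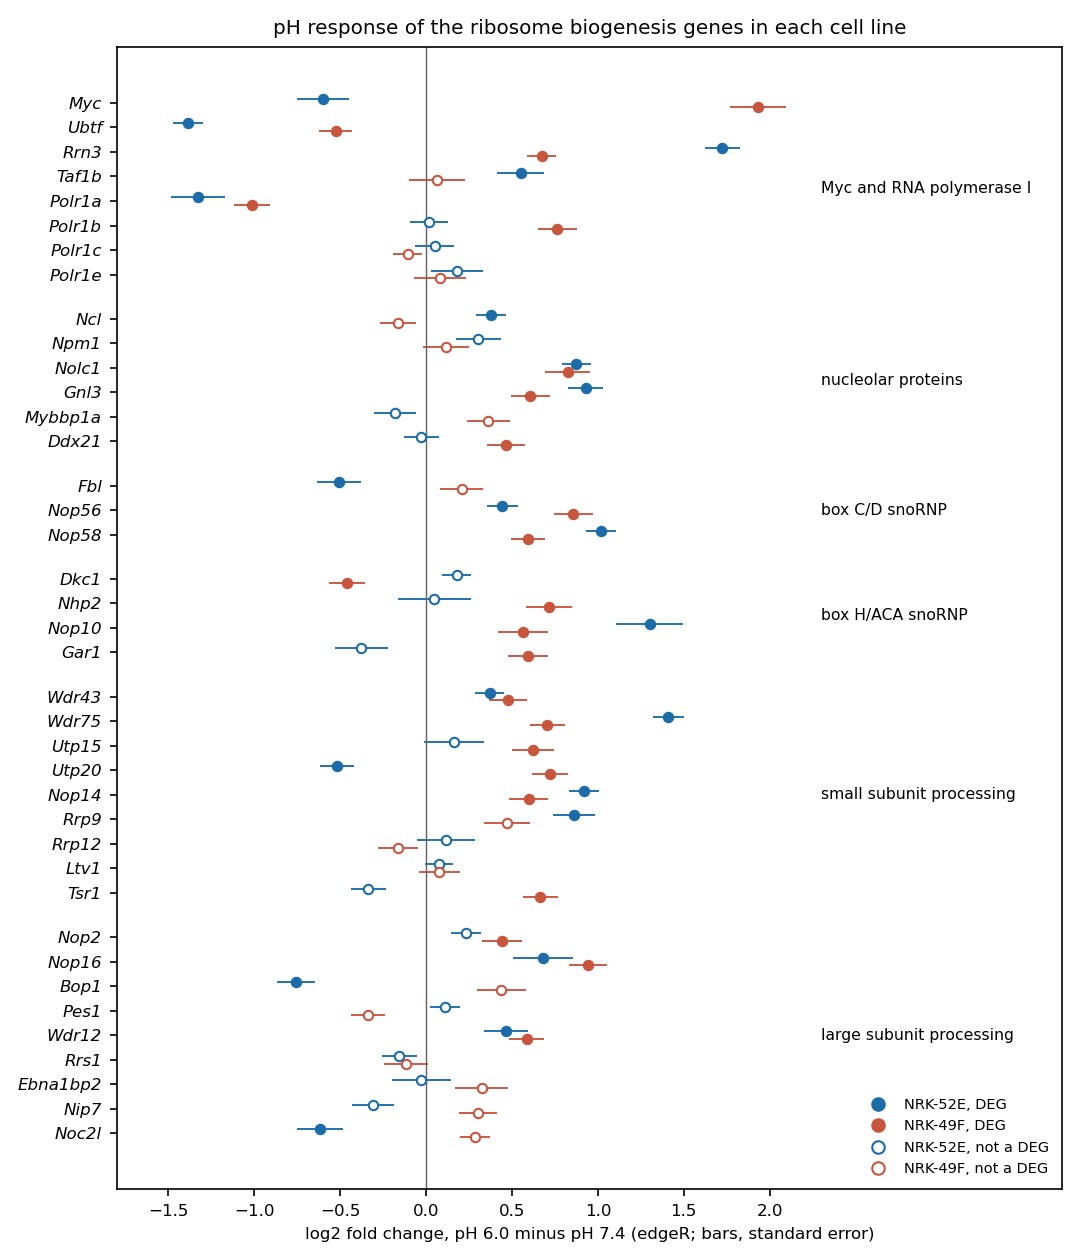
Log2 fold change between pH 6.0 and pH 7.4 (x axis, edgeR, bars show the standard error) for each of the 39 genes (y axis, grouped by role) in each cell line, with 8 libraries in each comparison; filled points are DEGs. Ubtf and Polr1a lie left of 0 and Rrn3 right of 0 in both lines, while Myc lies at -0.60 in NRK-52E and 1.93 in NRK-49F cells; with library totals the NRK-52E median falls from 0.12 to -0.09.

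The RNA polymerase I group holds Myc, 3 initiation factors and 4 polymerase subunits. In NRK-52E cells 2 of these 8 genes (25%) were higher and 3 (37.5%) lower at pH 6.0, beside 28.2% and 28.5% of all genes tested. The median log2 fold change was 0.03 and became -0.18 with library totals. In NRK-49F cells 3 (37.5%) were higher and 2 (25%) lower, beside 18.4% and 19.4% of all genes, with a median of 0.07. Values in single libraries are given below in the order N1, N2, N5 and N6 (NRK-52E at pH 7.4), N3, N4, N7 and N8 (NRK-52E at pH 6.0), N9, N10, N13 and N14 (NRK-49F at pH 7.4), and N11, N12, N15 and N16 (NRK-49F at pH 6.0). Where the 4 values of each pH do not overlap, a two-sided test of log2(FPM + 1) by exact permutation gives p = 0.0286, the smallest it can give with 4 against 4 libraries.

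Myc (ENSRNOG00000004500, chromosome 7 of rn6), the transcription factor that drives many ribosome genes, measured 23.03, 22.2, 20.5 and 18.6 FPM (pH 7.4) and 17.7, 13.2, 12.4 and 12.01 FPM (pH 6.0) in NRK-52E cells. The same gene measured 19.2, 21.2, 19.9 and 20.97 FPM (pH 7.4) and 101, 81.1, 74.9 and 53.7 FPM (pH 6.0) in NRK-49F cells. Every acidotic NRK-52E library lay below every control library, every acidotic NRK-49F library lay above, and the NRK-49F controls lay within the range of the NRK-52E controls. The log2 fold change was -0.60 ± 0.15 (SE, edgeR adjusted p = 0.00443) in NRK-52E cells and 1.93 ± 0.16 (edgeR adjusted p = 2.19e-06) in NRK-49F cells. Myc thus fell to 65.6% of its control level in epithelial cells and rose 3.82-fold in fibroblasts. The difference between these effects was -2.55 ± 0.23 (interaction, edgeR adjusted p = 9.25e-08). The Myc call in NRK-52E cells was lost with 1 library fewer, at -0.57 without N1, -0.58 without N2, -0.59 without N4 and -0.54 without N7, and within label number 21 (-0.57) and 22 (-0.66). In bulk RNA, fewer cells that express a gene and less RNA per cell cannot be told apart.

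Ubtf (ENSRNOG00000020937, chromosome 10), the upstream binding factor that opens the ribosomal RNA genes, measured 139.7, 141, 133 and 131 FPM in control and 54.3, 50.02, 46.8 and 55.8 FPM in acidotic NRK-52E cells. Ubtf in NRK-49F cells measured 223, 209, 222 and 264 FPM (pH 7.4) and 156, 145, 179 and 158 FPM (pH 6.0). It was lower in every acidotic library of either line, without overlap. The fall was 2.61-fold in NRK-52E cells (log2 fold change -1.39 ± 0.09, edgeR adjusted p = 4.17e-07) and 1.44-fold in NRK-49F cells (-0.52 ± 0.10, edgeR adjusted p = 6.83e-04). The interaction, -0.87 ± 0.13 (edgeR adjusted p = 2.58e-05), put the larger fall in NRK-52E cells.

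Polr1a (ENSRNOG00000009545, chromosome 4), which encodes the largest catalytic subunit of RNA polymerase I, measured 31.4, 39.5, 35.8 and 29.7 FPM (pH 7.4) and 14.2, 16.7, 12.4 and 10.8 FPM (pH 6.0) in NRK-52E cells. Polr1a in NRK-49F libraries measured 79.6, 71.1, 62.5 and 85.97 FPM in control and 37.2, 35.7, 35.3 and 40.2 FPM in acidosis. The acidotic libraries were lower without overlap in both lines, and the log2 fold change was -1.32 ± 0.16 for NRK-52E cells (edgeR adjusted p = 2.60e-05) and -1.01 ± 0.11 in NRK-49F cells (edgeR adjusted p = 1.04e-05). The interaction of -0.32 ± 0.19 did not pass the threshold (edgeR adjusted p = 0.167).

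Rrn3 (ENSRNOG00000003326, chromosome 10), the initiation factor that carries RNA polymerase I to the promoter, went the opposite way to Ubtf and Polr1a. Rrn3 measured 76.8, 69.96, 71.6 and 71.4 FPM (pH 7.4) and 261, 249, 249 and 191 FPM (pH 6.0) in NRK-52E cells, and 98.5, 97.96, 100.4 and 102 FPM (pH 7.4) and 178, 152, 161 and 146 FPM (pH 6.0) in NRK-49F cells. All acidotic libraries were above all control libraries of their line, with N8 the lowest of the acidotic NRK-52E libraries. The rise was 3.30-fold in NRK-52E cells (1.72 ± 0.10, edgeR adjusted p = 2.82e-07) and 1.59-fold in NRK-49F cells (0.67 ± 0.09, edgeR adjusted p = 4.74e-05), with an interaction of 1.04 ± 0.13 (edgeR adjusted p = 5.98e-06). Rrn3 had the largest log2 fold change of the 39 genes in NRK-52E cells, as Myc had in NRK-49F cells.

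Of the remaining genes of this group, Taf1b, a subunit of the selectivity complex, rose in NRK-52E cells from 9.68 ± 0.450 FPM to 14.1 ± 1.51 FPM (log2 fold change 0.55 ± 0.14) and had 0.06 ± 0.16 in NRK-49F cells. Polr1b, the other catalytic subunit, rose in NRK-49F cells from 21.6 ± 1.92 FPM to 36.7 ± 4.17 FPM (0.76 ± 0.11) and had 0.02 ± 0.11 in NRK-52E cells, with an interaction of -0.76 ± 0.15 (edgeR adjusted p = 5.36e-04). Polr1c, shared with RNA polymerase III, and Polr1e, a subunit of the initiating enzyme, were DEGs in neither line, with log2 fold changes between -0.11 and 0.18. The RNA of the 2 catalytic subunits was therefore called in opposite directions in NRK-49F cells, with Polr1a lower and Polr1b higher. The Taf1b call was lost with library totals (0.34) and with 1 library fewer, at 0.56 without N1, 0.54 without N2, 0.54 without N5, 0.50 without N6 and 0.56 without N7.

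The 6 nucleolar proteins were higher or not called in both lines. In NRK-52E cells 3 (50%) were higher and 0 lower, beside 28.2% and 28.5% of all genes, with a median of 0.34 (0.13 with library totals). In NRK-49F cells 3 (50%) were higher and 0 lower, beside 18.4% and 19.4% of all genes, with a median of 0.41. Nolc1 and Gnl3 rose in both lines. Nolc1 (ENSRNOG00000018704, chromosome 1), a chaperone of snoRNPs in the nucleolus, measured 83.8, 82.2, 87.2 and 87.1 FPM (pH 7.4) and 165, 157, 161 and 136 FPM (pH 6.0) in NRK-52E cells. Nolc1 in NRK-49F cells measured 101, 102, 95.2 and 74.5 FPM and, in acidosis, 187, 173, 168 and 133 FPM. Both lines were higher in acidosis without overlap and by a like amount, 0.88 ± 0.08 (edgeR adjusted p = 5.03e-06) in NRK-52E and 0.82 ± 0.13 (edgeR adjusted p = 2.34e-04) in NRK-49F cells.

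Gnl3 (ENSRNOG00000028461, chromosome 16), the nucleolar GTPase nucleostemin, measured 97.3, 85.6, 88.99 and 91.8 FPM in control and 207, 161, 165 and 154 FPM in acidotic NRK-52E cells, and 58.9, 66.6, 66.6 and 50.4 FPM in control and 97.8, 95.3, 96.5 and 80.2 FPM in acidotic NRK-49F cells. N3 stood above the other acidotic NRK-52E libraries and N16 below the other acidotic NRK-49F libraries, and neither group overlapped with its control. The rise was 1.90-fold in NRK-52E cells (0.93 ± 0.10, edgeR adjusted p = 1.66e-05) and 1.523-fold in NRK-49F cells (0.61 ± 0.12, edgeR adjusted p = 8.72e-04).

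Ncl (ENSRNOG00000018273, chromosome 9), nucleolin, which binds the nascent precursor, measured 431, 399, 415 and 422 FPM (pH 7.4) and 602, 539.96, 528 and 479 FPM (pH 6.0) in NRK-52E cells. Ncl in fibroblasts measured 528, 509, 513 and 485 FPM (pH 7.4) and 497, 474, 476 and 371 FPM (pH 6.0). The acidotic NRK-52E libraries were higher without overlap, while the NRK-49F groups overlapped. The log2 fold change was 0.38 ± 0.09 (edgeR adjusted p = 0.00283) in NRK-52E cells and -0.16 ± 0.11 (edgeR adjusted p = 0.217) in NRK-49F cells, with an interaction of 0.53 ± 0.14 (edgeR adjusted p = 0.00392). The Ncl call was lost with library totals (0.17) and at 0.35 without N2, 0.35 without N5 and 0.36 without N6.

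Npm1 (ENSRNOG00000004616, chromosome 10), nucleophosmin, a histone and ribosome chaperone, measured 688, 582, 576 and 628 FPM (pH 7.4) and 905, 640.2, 645 and 835 FPM (pH 6.0) in NRK-52E cells, and 956, 949, 1148 and 743 FPM (pH 7.4) and 1034, 1118, 1019 and 946 FPM (pH 6.0) in NRK-49F cells. The pH groups overlapped in both lines, and Npm1 was a DEG in neither, with 0.30 ± 0.13 (edgeR adjusted p = 0.0591, exact permutation p = 0.114) in NRK-52E and 0.12 ± 0.13 (edgeR adjusted p = 0.485, exact permutation p = 0.457) in NRK-49F cells. Npm1 has processed copies elsewhere in the genome, and fragments that fit several places were counted at each, so its level is uncertain. Ddx21, a helicase that works with RNA polymerase I, rose in NRK-49F cells from 55.9 ± 4.03 FPM to 77.3 ± 9.94 FPM (0.47 ± 0.11), a call lost at 0.47 without N9, 0.40 without N11 and 0.44 without N12, and had -0.03 ± 0.10 in NRK-52E cells. Mybbp1a, a nucleolar partner of the polymerase, had -0.18 ± 0.12 in NRK-52E and 0.36 ± 0.12 in NRK-49F cells, neither a DEG, and became one in NRK-49F cells at 0.45 without N16.

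Fbl, Nop56 and Nop58 form the core of the box C/D snoRNPs, which methylate ribosomal RNA. In NRK-52E cells 2 of the 3 (66.7%) were higher and 1 (33.3%) lower, beside 28.2% and 28.5% of all genes. In NRK-49F cells 2 (66.7%) were higher and 0 lower, beside 18.4% and 19.4% of all genes. Fbl (ENSRNOG00000019229, chromosome 1), the methyltransferase fibrillarin, measured 52.04, 46.3, 40.8 and 44.04 FPM (pH 7.4) and 29.6, 27.9, 31.9 and 38.6 FPM (pH 6.0) in NRK-52E cells, and 39.8, 33.8, 46.98 and 48.3 FPM and 46.2, 53.3, 51.7 and 43.9 FPM in control and acidotic NRK-49F cells. It was lower in all acidotic NRK-52E libraries, and the NRK-49F groups overlapped. The log2 fold change was -0.50 ± 0.13 (edgeR adjusted p = 0.00479) in NRK-52E and 0.21 ± 0.13 (edgeR adjusted p = 0.181) in NRK-49F cells. The interaction was -0.73 ± 0.18 (edgeR adjusted p = 0.00297). The Fbl call was lost at -0.45 without N1, -0.50 without N2, -0.47 without N3, -0.46 without N4 and -0.49 without N7.

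The RNA of the scaffold proteins of the same particle rose in both lines. Nop58 (ENSRNOG00000016486, chromosome 9) measured 111, 109, 108 and 107 FPM (pH 7.4) and 230.4, 229, 230.1 and 186 FPM (pH 6.0) in NRK-52E cells, and 74.7, 74.7, 76.96 and 68.99 FPM (pH 7.4) and 127, 108, 113 and 98.5 FPM (pH 6.0) in NRK-49F cells. Apart from N8, which was lower, the acidotic NRK-52E libraries were nearly equal, and no group overlapped with its control. The log2 fold change of Nop58 was 1.02 ± 0.09 in NRK-52E (edgeR adjusted p = 2.35e-06) and 0.59 ± 0.10 in NRK-49F cells (edgeR adjusted p = 2.94e-04). Nop56 (ENSRNOG00000007128, chromosome 3) measured 61.5, 52.2, 48.8 and 52.6 FPM (pH 7.4) and 72.2, 69.2, 75.8 and 72.9 FPM (pH 6.0) in NRK-52E cells. Nop56 in NRK-49F cells measured 46.004, 45.6, 57.2 and 49.4 FPM (pH 7.4) and 96.1, 89.4, 98.9 and 75.3 FPM (pH 6.0). These groups did not overlap either, with log2 fold changes of 0.44 ± 0.09 (edgeR adjusted p = 0.00129) and 0.86 ± 0.11 (edgeR adjusted p = 6.49e-05), of which the first was no longer called with library totals (0.24). In NRK-52E cells the RNA of Fbl was thus called lower and that of Nop58 and Nop56 higher. The difference between these genes was not tested.

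Dkc1, Nhp2, Nop10 and Gar1 form the box H/ACA snoRNPs, which convert uridine of ribosomal RNA to pseudouridine. In NRK-52E cells 1 of the 4 (25%) was higher and 0 were lower, beside 28.2% and 28.5% of all genes. The median was 0.11 and became -0.10 with library totals. In NRK-49F cells 3 (75%) were higher and 1 (25%) lower, beside 18.4% and 19.4% of all genes, with a median of 0.58. Nop10 (ENSRNOG00000005184, chromosome 3), a small core protein, measured 42.3, 31.6, 31.05 and 34.04 FPM (pH 7.4) and 78.03, 63.1, 76.4 and 121 FPM (pH 6.0) in NRK-52E cells, and 45.9, 49.1, 65.6 and 48.5 FPM (pH 7.4) and 68.9, 95.5, 76.5 and 69.1 FPM (pH 6.0) in NRK-49F cells. It was higher in acidosis without overlap in both lines, with 1.30 ± 0.19 (edgeR adjusted p = 1.46e-04) in NRK-52E and 0.57 ± 0.15 (edgeR adjusted p = 0.00598) in NRK-49F cells. The Nop10 call in NRK-49F cells was lost with all 16 libraries in 1 fit (0.57) and at 0.50 without N9, 0.54 without N10, 0.44 without N12, 0.52 without N14 and 0.58 without N15.

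Nhp2 (ENSRNOG00000004247, chromosome 10), which binds the guide RNA, measured 33.1, 28.002, 20.1 and 26.2 FPM (pH 7.4) and 24.7, 20.96, 24.8 and 39.3 FPM (pH 6.0) in NRK-52E cells. Nhp2 in NRK-49F cells measured 41.04, 41.8, 57.9 and 48.02 FPM (pH 7.4) and 74.6, 88.3, 82.2 and 65.1 FPM (pH 6.0). The NRK-52E groups overlapped (0.05 ± 0.21, edgeR adjusted p = 0.846), and the acidotic NRK-49F libraries were all higher (0.72 ± 0.14, edgeR adjusted p = 8.46e-04). The interaction of -0.68 ± 0.26 did not pass the threshold (edgeR adjusted p = 0.0331). Gar1 rose in NRK-49F cells from 18.3 ± 0.696 FPM to 27.6 ± 3.34 FPM (0.59 ± 0.12) and had -0.38 ± 0.15 in NRK-52E cells, where it became a DEG with library totals (-0.58) and at -0.52 without N8. Dkc1, the pseudouridine synthase dyskerin, fell in NRK-49F cells from 198 ± 18.9 FPM to 144 ± 16.8 FPM (-0.46 ± 0.10), a call lost at -0.42 without N11, and had 0.18 ± 0.09 in NRK-52E cells. The interactions were -0.98 ± 0.19 for Gar1 (edgeR adjusted p = 2.97e-04) and 0.62 ± 0.14 for Dkc1 (edgeR adjusted p = 0.00113). In NRK-49F cells the RNA of the enzyme Dkc1 was therefore called lower and that of its 3 partners higher.

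Among the 9 genes of small subunit processing, 4 (44.4%) were higher and 1 (11.1%) lower in NRK-52E cells, beside 28.2% and 28.5% of all genes. Their median was 0.16 and became -0.04 with library totals. In NRK-49F cells 6 (66.7%) were higher and 0 lower, beside 18.4% and 19.4% of all genes, with a median of 0.60. Wdr75 (ENSRNOG00000003825, chromosome 9), part of the complex that first binds the precursor, measured 43.3, 43.3, 47.1 and 46.4 FPM (pH 7.4) and 114, 112, 133 and 116 FPM (pH 6.0) in NRK-52E cells, and 31.6, 31.99, 32.3 and 28.4 FPM (pH 7.4) and 55.3, 51.9, 50.2 and 45.5 FPM (pH 6.0) in NRK-49F cells. Acidotic libraries were higher without overlap in both lines, 2.66-fold in NRK-52E (1.41 ± 0.09, edgeR adjusted p = 4.04e-07) and 1.63-fold in NRK-49F cells (0.71 ± 0.10, edgeR adjusted p = 1.07e-04). The interaction was 0.69 ± 0.13 (edgeR adjusted p = 1.99e-04).

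Utp20 (ENSRNOG00000005823, chromosome 7), a large scaffold of the small subunit processome, had opposite signs in the 2 lines. Utp20 measured 46.9, 52.5, 52.4 and 48.7 FPM (pH 7.4) and 32.6, 38.8, 36.2 and 31.4 FPM (pH 6.0) in NRK-52E cells, and 30.997, 33.6, 25.01 and 30.6 FPM (pH 7.4) and 49.1, 50.5, 49.5 and 49.5 FPM (pH 6.0) in NRK-49F cells. Acidotic NRK-52E libraries were all lower and acidotic NRK-49F libraries all higher than their controls. The NRK-52E call was lost within label number 21 (-0.49) and 22 (-0.57). The log2 fold change was -0.52 ± 0.10 (edgeR adjusted p = 7.93e-04) in NRK-52E and 0.72 ± 0.10 (edgeR adjusted p = 1.07e-04) in NRK-49F cells, with an interaction of -1.25 ± 0.14 (edgeR adjusted p = 1.43e-06). Utp20 and Myc were the 2 genes of the 39 (5.13%) that were DEGs of opposite sign, beside 534 of 12470 genes tested in both lines (4.28%).

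Nop14, which links the head of the small subunit, rose from 40.8 ± 3.45 FPM to 76.6 ± 1.69 FPM in NRK-52E cells (0.92 ± 0.09) and from 44.999 ± 1.79 FPM to 68.1 ± 10.1 FPM in NRK-49F cells (0.60 ± 0.12). Wdr43, a partner of Wdr75, rose in NRK-52E (0.37 ± 0.08) and NRK-49F cells (0.48 ± 0.11). That call was lost in NRK-52E cells with library totals (0.16) and at 0.34 without N2 and 0.35 without N6, and in NRK-49F cells at 0.46 without N12. Rrp9, a protein of the snoRNP that guides small subunit cleavage, rose in NRK-52E cells (0.86 ± 0.12) and had 0.47 ± 0.13 in NRK-49F cells, with an edgeR adjusted p of 0.01002 and a DESeq2 adjusted p of 0.00304. With 1 library fewer, Rrp9 became a DEG in NRK-49F cells (0.55 without N13 and 0.57 without N16). Utp15, of the same complex as Wdr75, and Tsr1, a late assembly factor, rose in NRK-49F cells (0.62 ± 0.12 and 0.67 ± 0.10) and had 0.16 ± 0.18 and -0.33 ± 0.10 in NRK-52E cells, where Tsr1 became a DEG with library totals (-0.54) and at -0.41 without N4. The interaction was -1.01 ± 0.14 for Tsr1 (edgeR adjusted p = 1.68e-05) and -0.47 ± 0.23 for Utp15 (edgeR adjusted p = 0.0908). Rrp12 and Ltv1, which act in export and late maturation, were DEGs in neither line, with log2 fold changes between -0.16 and 0.12.

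Of 9 genes of large subunit processing, 2 were higher and 2 lower in NRK-52E cells (22.2% each, beside 28.2% and 28.5% of all genes), with a median of -0.03 (0 higher and 3 lower, median -0.23, with library totals). In NRK-49F cells 3 (33.3%) were higher and 0 lower, beside 18.4% and 19.4% of all genes, with a median of 0.32. Bop1 (ENSRNOG00000021773, chromosome 7), of the complex with Pes1 and Wdr12 that matures the large subunit RNA, measured 62.9, 61.1, 54.3 and 53.98 FPM (pH 7.4) and 29.6, 35.9, 32.6 and 38.2 FPM (pH 6.0) in NRK-52E cells, and 37.6, 42.8, 42.8 and 54.3 FPM (pH 7.4) and 66.1, 65.1, 63.9 and 45.95 FPM (pH 6.0) in NRK-49F cells. It was lower in all acidotic NRK-52E libraries, and in NRK-49F cells N16 lay within the range of the controls while the other 3 acidotic libraries lay above it. The log2 fold change was -0.76 ± 0.11 (edgeR adjusted p = 1.11e-04) in NRK-52E and 0.44 ± 0.14 (edgeR adjusted p = 0.0205) in NRK-49F cells. The interaction was -1.21 ± 0.19 (edgeR adjusted p = 3.78e-05). Bop1 became a DEG in NRK-49F cells at 0.54 without N14 and 0.55 without N16.

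The partners of Bop1 were not lower in NRK-52E cells. Wdr12 rose in both lines, from 21.4 ± 2.99 FPM to 29.2 ± 2.48 FPM in NRK-52E cells (0.46 ± 0.13) and from 24.02 ± 1.29 FPM to 36.1 ± 2.78 FPM in NRK-49F cells (0.58 ± 0.10). Pes1 was a DEG in neither line (0.11 ± 0.09 and -0.34 ± 0.10), while its interaction was 0.44 ± 0.13 (edgeR adjusted p = 0.00849). The Wdr12 call in NRK-52E cells was lost with library totals (0.26), without the filter on low counts and at 0.46 without N2, 0.44 without N3, 0.48 without N4, 0.38 without N5 and 0.41 without N6.

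Nop16 (ENSRNOG00000017284, chromosome 17), a nucleolar protein of early large subunit particles, measured 42.4, 39.1, 30.5 and 33.4 FPM (pH 7.4) and 56.0000, 46.1, 50.1 and 78.6 FPM (pH 6.0) in NRK-52E cells. Nop16 in NRK-49F cells measured 72.96, 65.9, 82.5 and 75.3 FPM (pH 7.4) and 141, 162, 146 and 123 FPM (pH 6.0). It was higher in acidosis without overlap in both lines, with N8 the highest NRK-52E library, and the log2 fold changes were 0.68 ± 0.18 (edgeR adjusted p = 0.00526) and 0.94 ± 0.11 (edgeR adjusted p = 2.22e-05). The call in NRK-52E cells was lost with library totals (0.47) and at 0.72 without N2, 0.70 without N3, 0.58 without N5 and 0.62 without N6. Noc2l, which travels with early particles, fell in NRK-52E cells from 60.2 ± 2.89 FPM to 38.9 ± 7.28 FPM (-0.61 ± 0.13) and had 0.29 ± 0.09 in NRK-49F cells (0.34 without N16, a DEG), with an interaction of -0.91 ± 0.16 (edgeR adjusted p = 1.19e-04). Nop2, a methyltransferase of the large subunit RNA, rose in NRK-49F cells (0.44 ± 0.12), where its groups overlapped through N16, and had 0.23 ± 0.09 in NRK-52E cells. The Nop2 call was lost at 0.46 without N9, 0.43 without N10, 0.38 without N11, 0.41 without N12, 0.41 without N13, 0.47 without N14 and 0.44 without N15. Ebna1bp2, Nip7 and Rrs1, which assemble the large subunit, were DEGs in neither line, with log2 fold changes between -0.31 and 0.32, and Nip7 had an interaction of -0.63 ± 0.16 (edgeR adjusted p = 0.00318). Nip7 became a DEG in NRK-52E cells with library totals (-0.52) and in NRK-49F cells at 0.39 without N13.

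**Figure D2:**
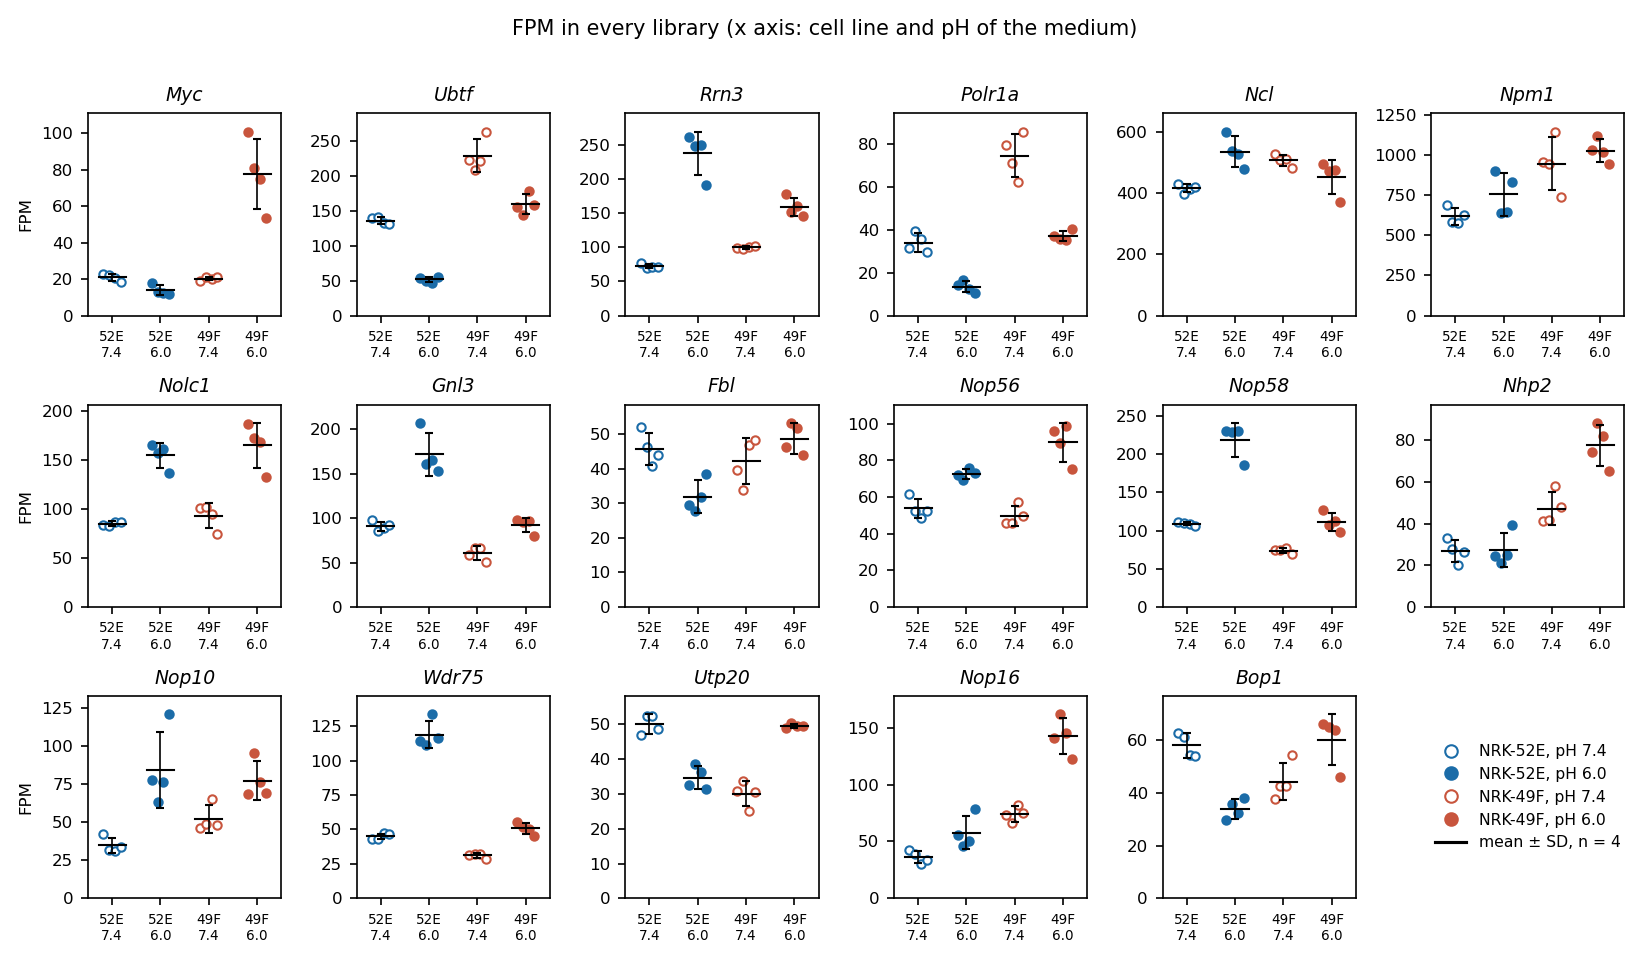
FPM (y axis, linear from 0, own scale in each panel) of 17 genes in each of the 16 libraries by cell line and pH of the medium (x axis); points are libraries and black lines the mean ± SD of 4. Myc separates the lines at pH 6.0, with 12.01 to 17.7 FPM in NRK-52E and 53.7 to 101 FPM in NRK-49F cells, and the acidotic libraries of Ubtf and Polr1a lie below, those of Rrn3 above, their controls in both lines.

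The pH comparisons of the 2 lines share no libraries, so their calls can be set side by side. In both lines 11 genes were higher: Rrn3, Nolc1, Gnl3, Nop56, Nop58, Nop10, Wdr43, Wdr75, Nop14, Nop16 and Wdr12. They were 78.6% of the 14 genes higher in NRK-52E and 55% of the 20 higher in NRK-49F cells. Among all 12470 genes tested in both lines, those higher in both were 32.4% of the 3643 higher in NRK-52E and 50.7% of the 2329 higher in NRK-49F cells. Ubtf and Polr1a (5.13%) were lower in both lines, beside 10.01% of these 12470 genes, and 10 (25.6%) were called in neither, beside 30.1%: Polr1c, Polr1e, Npm1, Mybbp1a, Rrp12, Ltv1, Pes1, Rrs1, Ebna1bp2 and Nip7.

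The difference between the pH effects themselves was tested as an interaction in all 16 libraries, which are the libraries of the comparisons within each line. The effect was more positive in NRK-52E cells for 5 of the 39 genes (12.8%), beside 19.3% of 14679 genes tested, and more positive in NRK-49F cells for 10 (25.6%), beside 17.5%. The 5 were Rrn3, Ncl, Dkc1, Wdr75 and Pes1, and the 10 were Myc, Ubtf, Polr1b, Fbl, Gar1, Utp20, Tsr1, Bop1, Nip7 and Noc2l. The median over the 39 genes was -0.13, beside -0.01 for all genes. With library totals the medians were -0.37 and -0.25. Then 2 genes were more positive in NRK-52E and 14 in NRK-49F cells, and the split of all genes moved from 2838 and 2574 to 1827 and 3584. The positive calls of Ncl, Dkc1 and Pes1 were lost with library totals (0.29, 0.38 and 0.19). The call of Pes1 was lost too with the label number as a covariate (0.43), with DESeq2's size factors (0.42) and without the filter on low counts (0.45). Without library N2, or without N3, the count of 5 became 3, and the shares of all genes called there are not given here. Of the 11 genes higher in both lines, Rrn3 and Wdr75 had an interaction and the other 9 did not pass its threshold, which does not show that their responses were equal.

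The cell lines were also compared at each pH, in libraries that the comparisons above use too. At pH 7.4, 14 of the 39 genes (35.9%) were higher in NRK-52E than in NRK-49F cells, beside 33.3% of 14026 genes tested, and 11 (28.2%) were lower, beside 33.3%. At pH 6.0, 7 (17.9%) were higher in NRK-52E cells, beside 28.6% of 13796 genes tested, and 14 (35.9%) were lower, beside 31.3%. The median log2 difference was -0.05 at pH 7.4, beside 0.03 for all genes, and -0.31 at pH 6.0, beside -0.03. With library totals these became 0.26, beside 0.34, and -0.16, beside 0.12. This shift of all genes left the 39 genes below them by about the same amount (at pH 7.4 -0.08 with TMM and -0.07 with library totals). Without the filter on low counts that difference was -0.16 at pH 7.4. With the label number as a covariate the line difference rests on the libraries of number 21, 2 against 2, since 20 occurs only in NRK-49F and 22 only in NRK-52E columns. The median then turned to 0.04 at pH 7.4 (10 higher and 8 lower), beside 0.02 for all genes, and was no longer below theirs. At pH 6.0 it was -0.28 (7 higher and 8 rather than 14 lower), beside -0.05 for all genes. The genes called among all tested fell too, from 9338 to 7417 and from 8251 to 6660. The counts with library totals were 19 higher and 5 lower at pH 7.4, and 8 higher and 10 lower at pH 6.0. All genes at pH 7.4 split into 6375 higher and 3323 lower in place of 4668 and 4670.

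Myc did not pass the threshold between the lines at pH 7.4 (0.14 ± 0.10, edgeR adjusted p = 0.223; with library totals 0.44 and called higher) and was -2.49 ± 0.20 on the log2 scale at pH 6.0, 5.61-fold lower in NRK-52E cells (edgeR adjusted p = 2.97e-07). Ubtf and Polr1a were lower in NRK-52E cells at both pH values, with -0.67 ± 0.08 and -1.05 ± 0.12 at pH 7.4 and -1.62 ± 0.11 and -1.45 ± 0.15 at pH 6.0. Rrn3 was called lower at pH 7.4 (-0.38 ± 0.06), a call lost with library totals (-0.07), and higher at pH 6.0 (0.58 ± 0.12). Utp20, Tsr1, Bop1 and Noc2l were called higher at pH 7.4 and lower at pH 6.0, with 0.82 ± 0.10, 0.55 ± 0.08, 0.47 ± 0.11 and 0.28 ± 0.07 at pH 7.4 and -0.51 ± 0.11, -0.54 ± 0.12, -0.82 ± 0.14 and -0.72 ± 0.14 at pH 6.0. At pH 6.0 the calls of Utp20 and Tsr1 were lost with library totals (-0.36 and -0.39) and with the label number as a covariate (-0.47 and -0.56). At pH 7.4 those of Bop1 and Noc2l were lost with the covariate (0.42 and 0.31), and that of Noc2l without the filter on low counts (0.26). Taf1b, Gnl3, Nop58, Wdr43, Wdr75 and Ltv1 were higher in NRK-52E cells at both pH values, and Nhp2, Nop2 and Nop16 were lower at both. With library totals Nhp2 was not called at pH 7.4 (-0.42). Nop2 was then called at neither pH and turned its sign at pH 7.4 (0.02 at pH 7.4 and -0.44 at pH 6.0). With the covariate Nop2 was called at neither pH (-0.22 and -0.42), and Taf1b lost its call at pH 7.4 (0.57) and Wdr43 at pH 6.0 (0.58, and 0.41 without the filter). Of the 9 large subunit genes at pH 6.0, 0 were higher in NRK-52E cells and 5 (55.6%) lower, beside 28.6% and 31.3% of all genes. Their median was -0.59 (with library totals 0 higher, 3 lower and -0.44). The small subunit genes had 3 higher and 2 lower (median -0.04), or 3 and 0 (0.11) with library totals. The counts were 1 and 0 for nucleolar proteins (0.08) and 2 and 4 for the RNA polymerase I group (-0.53). They were 1 and 1 for box C/D (-0.31) and 0 and 2 for box H/ACA genes (-0.40). At pH 7.4, with TMM, 3 large subunit genes were higher in NRK-52E cells and 3 lower (median -0.27). The small subunit genes had 6 higher and 1 lower (0.55), nucleolar proteins 3 and 1 (0.14) and the RNA polymerase I group 1 and 3 (-0.30). Box C/D genes had 1 and 0 (0.20) and box H/ACA genes 0 and 3 (-0.49). Of all genes tested at pH 7.4, 33.3% were higher and 33.3% lower.

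Further genes of the pathway, on lists that hold none of the 39, were counted in the same way, and the DEGs with the largest changes and at least 10 FPM are named. Of 129 such genes, 50 (38.8%) were higher and 15 (11.6%) lower in NRK-52E cells, with a median of 0.26 (36 higher and 25 lower, median 0.04, with library totals), and 50 (38.8%) were higher and 5 (3.88%) lower in NRK-49F cells, with a median of 0.32 (57 higher and 3 lower with library totals). With TMM, the shares of all genes tested were 28.2% higher and 28.5% lower in NRK-52E cells, and 18.4% and 19.4% in NRK-49F cells. The TMM counts of each list are to be read beside these shares. With library totals, 2900 of 13735 genes tested were higher and 4815 lower in NRK-52E cells (median -0.21). In NRK-49F cells 2664 of 13339 were then higher and 2346 lower (median 0.04). The counts and medians with library totals are to be read beside these values. Among the other RNA polymerase I genes, the counts were 5 of 12 higher and 2 lower in NRK-52E (median 0.43; 5 higher and 3 lower, median 0.22, with library totals) and 3 of 12 higher and 1 lower in NRK-49F cells. Taf1a and Taf1d, the partners of Taf1b in the selectivity complex, rose in both lines. For NRK-52E cells Taf1a went from 7.02 ± 0.637 to 22.8 ± 6.85 FPM (1.71 ± 0.21) and Taf1d from 30.8 ± 2.25 to 93.1 ± 3.92 FPM (1.61 ± 0.09). For NRK-49F cells Taf1a went from 4.48 ± 0.977 to 13.53 ± 1.03 FPM (1.60 ± 0.17) and Taf1d from 25.4 ± 3.58 to 49.9 ± 6.58 FPM (0.97 ± 0.13). A further partner, Taf1c, fell in NRK-52E cells (-0.38 ± 0.09), as did the polymerase subunit gene Cd3eap (-1.75 ± 0.23), and Polr1d fell in NRK-49F cells (-0.59 ± 0.10).

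For the small subunit list the counts were 14 of 46 higher and 3 lower in NRK-52E (median 0.17; 10 higher and 8 lower, median -0.03, with library totals) and 17 of 46 higher and 3 lower in NRK-49F cells (median 0.32; 20 higher and 2 lower with library totals). Dcaf13 (1.59 ± 0.09) and Utp11 (1.28 ± 0.11) led the rises in NRK-52E cells, and Nat10, an RNA acetyltransferase, fell from 44.7 ± 2.78 to 9.72 ± 2.13 FPM (-2.19 ± 0.16), ahead of Rcl1 (-0.93 ± 0.22). In fibroblasts Utp18 (1.14 ± 0.14) and Emg1 (0.94 ± 0.11) led the rises, and Utp14a (-0.52 ± 0.10) and Rrp7a (-0.50 ± 0.14) the falls. For the large subunit list the counts were 23 of 46 higher and 6 lower in NRK-52E (median 0.42; 17 higher and 8 lower, median 0.21, with library totals) and 16 of 46 higher and 0 lower in NRK-49F cells (median 0.31; 19 higher and 0 lower with library totals). Nop53 (1.44 ± 0.13) and Mak16 (1.41 ± 0.12) led in NRK-52E cells, where Nol9 (-1.004 ± 0.17) and Ddx31 (-0.93 ± 0.15) fell most among DEGs with at least 10 FPM, and Pak1ip1 (1.18 ± 0.13) and Gtpbp4 (1.01 ± 0.08) led in NRK-49F cells.

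Genes of the exosome and the exonuclease Xrn2, which trim the precursor, were 4 of 15 higher and 2 lower in NRK-52E (median 0.07; 2 higher and 3 lower, median -0.14, with library totals) and 8 of 15 higher and 1 lower in NRK-49F cells (median 0.50; 9 higher and 0 lower with library totals). Exosc8 rose in both lines (1.47 ± 0.15 and 1.07 ± 0.13), Mtrex rose in NRK-52E (0.59 ± 0.09) and Exosc7 in NRK-49F cells (0.91 ± 0.12), while Exosc2 (-0.92 ± 0.14) and Exosc10 (-0.36 ± 0.10) fell in NRK-52E and Xrn2 (-0.32 ± 0.08) in NRK-49F cells, a call lost with library totals. Assembly factors of snoRNPs were 4 of 10 higher and 2 lower in NRK-52E (median 0.13; 2 higher and 3 lower, median -0.08, with library totals) and 6 of 10 higher and 0 lower in NRK-49F cells (median 0.41). Nufip1 (1.11 ± 0.11) and Snu13 (0.76 ± 0.10), a core protein of the box C/D particle, rose in NRK-52E cells, where Ruvbl1 (-0.94 ± 0.18) and Znhit6 (-0.64 ± 0.18) fell, and Ruvbl2 (0.73 ± 0.12) and Rpap3 (0.57 ± 0.09) rose in NRK-49F cells.

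RNA polymerase III, which makes the smallest ribosomal RNA and transfer RNAs, had 4 of 21 higher and 5 lower in NRK-52E (median -0.09; 1 higher and 8 lower, median -0.30, with library totals) and 7 of 21 higher and 4 lower in NRK-49F cells (median 0.12; 7 higher and 3 lower with library totals). Its initiation factor Brf1 fell from 57.9 ± 3.76 to 15.4 ± 2.93 FPM in NRK-52E cells (-1.89 ± 0.14), with Polr3b next (-0.93 ± 0.16), while Polr3d (1.104 ± 0.10) and Polr3g (0.64 ± 0.14) rose. In NRK-49F cells Bdp1 (0.92 ± 0.23) and Polr3g (0.79 ± 0.13) rose, and Gtf3c5 (-0.75 ± 0.09) and Crcp (-0.59 ± 0.14) fell. The relatives and partners of Myc had 3 of 10 higher and 1 lower in NRK-52E (median 0.09; 2 higher and 3 lower, median -0.12, with library totals) and 1 of 9 higher and 2 lower in NRK-49F cells (median 0.17; 2 higher and 2 lower with library totals). Mycn went from 30.3 ± 4.09 to 7.69 ± 0.939 FPM in NRK-52E cells (-1.97 ± 0.15) and was below 1 FPM in NRK-49F cells, so in NRK-52E cells it fell together with Myc. Max, the partner that Myc needs to bind DNA, rose in both lines (0.89 ± 0.09 and 0.75 ± 0.09). Mxd1, which competes with Myc for Max, rose in NRK-52E cells from 24.8 ± 1.83 to 56.7 ± 7.14 FPM (1.20 ± 0.11) and fell in NRK-49F cells from 23.9 ± 4.22 to 14.47 ± 0.946 FPM (-0.73 ± 0.15), the reverse of Myc, and Mxd4 fell in NRK-49F cells (-0.60 ± 0.14).

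Genes of growth signalling had 5 of 12 higher and 5 lower in NRK-52E (median -0.10; 4 higher and 5 lower, median -0.30, with library totals) and 3 of 12 higher and 1 lower in NRK-49F cells (median 0.12). Sesn2 and Ddit4, which act on the growth kinase complex of Mtor, rose in NRK-52E cells from 28.9 ± 3.23 to 213 ± 61.9 FPM (2.89 ± 0.20) and from 30.9 ± 2.83 to 161 ± 51.8 FPM (2.39 ± 0.20). Mlst8 (-1.68 ± 0.16) and Deptor (-1.15 ± 0.32), both held in that complex, fell. The other DEGs of this list in NRK-52E cells were Eif4ebp1 (2.26), Rheb (0.60) and Rps6kb1 (0.41), which were higher. Akt1s1 (-0.90), Tsc2 (-0.74) and Mtor (-0.44) were lower. In NRK-49F cells Deptor (1.105 ± 0.30) and Tsc2 (0.76 ± 0.11) rose and Akt1s1 fell (-0.58 ± 0.10). A list of 5 genes around the 5S RNP and Mdm2 (Rpl5, Rpl11, Heatr3, Mdm2 and Cdkn1a) had 3 of 5 higher and 0 lower in NRK-52E (median 0.87; 3 higher and 0 lower, median 0.66, with library totals) and 0 of 5 higher and 0 lower in NRK-49F cells (median 0.33; 1 higher and 0 lower with library totals). Cdkn1a rose from 29.3 ± 5.03 to 1392 ± 334 FPM (5.58 ± 0.21) and Mdm2 from 54.9 ± 3.31 to 549 ± 167 FPM (3.33 ± 0.21) in NRK-52E cells. Rpl5, a ribosomal protein of the 5S RNP, was the other DEG, and Rpl11, its partner there, was not called. Cell cycle genes had 1 of 12 higher and 8 lower in NRK-52E (median -0.86; 1 higher and 8 lower, median -1.06, with library totals) and 4 of 12 higher and 0 lower in NRK-49F cells (median 0.33). Mki67 (-2.76 ± 0.26) and Mcm3 (-1.67 ± 0.16) fell most and Ccne1 rose (0.64 ± 0.12) in NRK-52E cells, while Mcm2 (0.99 ± 0.11) and Mcm3 (0.94 ± 0.16) rose in NRK-49F cells. The part of the cell cycle changes in the values of the 39 genes was not tested.

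**Figure D3:**
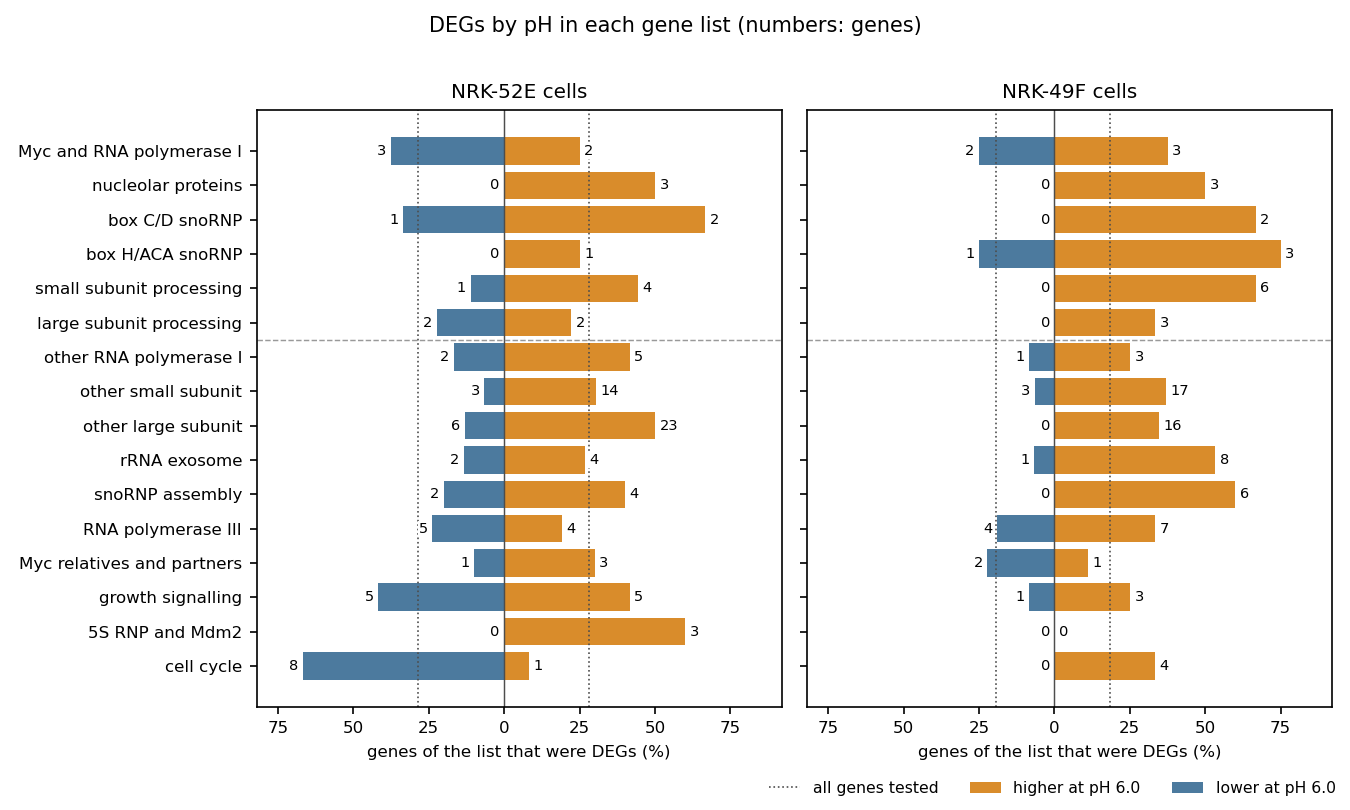
Share of each gene list that was higher (right) or lower (left) at pH 6.0 (x axis, percent of the genes tested; numbers at the bars are genes) in each cell line; the 39 genes by role are above the dashed line and the further lists below it, and dotted lines mark the shares of all genes tested. Small subunit processing reaches 4 higher and 1 lower in NRK-52E and 6 higher and 0 lower in NRK-49F cells; with library totals the 39 genes split into 8 higher and 10 lower in NRK-52E cells.

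Myc binds DNA with Max at the E-box, spelled CACGTG on either strand, so the promoters of the genes were searched for these letters. RefSeq promoters of the rat genome GRCr8, with 250 bases before and 50 after the gene start, were matched by symbol for 35 of the 39 genes, and Myc, Wdr43, Bop1 and Rrs1 were not searched. The letters occurred in 12 of the 35 (34.3%), beside 1826 of 27457 promoters in the table (6.65%), 922 of 9929 of genes tested by pH (9.29%) and 31 of 110 of the further ribosome biogenesis genes (28.2%). The median promoter of the 35 had 59.3% G and C and 23 CpG pairs, beside 61% and 21 for genes tested. The 12 were Ltv1, Fbl, Rrp12, Nop2, Ebna1bp2, Utp20, Wdr75, Mybbp1a, Tsr1, Pes1, Gnl3 and Dkc1, of which Mybbp1a held the letters at 2 places. They occurred in 2 of the 10 matched genes that were higher in both lines and in 5 of the 9 that were called in neither. The match is a description of the sequence and not a binding site.

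The stretches around the E-box before the gene start are shown for 5 genes with different responses, written 5′ to 3′ along the strand of the gene with CACGTG in capitals. Gnl3 (chr16:6219783-6219847 on the minus strand) and Wdr75 (chr9:55395032-55395117 on the plus strand) rose in both lines, Utp20 (chr7:25102931-25103016 on the minus strand) fell in NRK-52E and rose in NRK-49F cells, Dkc1 (chrX:157751427-157751512 on the plus strand) fell in NRK-49F cells, and Pes1 (chr14:83074256-83074341 on the plus strand) was called in neither line. The sequences are from RefSeq, GRCr8.
Gnl3: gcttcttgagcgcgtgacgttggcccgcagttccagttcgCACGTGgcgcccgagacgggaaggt
Wdr75: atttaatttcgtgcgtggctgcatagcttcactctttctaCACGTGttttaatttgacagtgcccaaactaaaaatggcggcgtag
Utp20: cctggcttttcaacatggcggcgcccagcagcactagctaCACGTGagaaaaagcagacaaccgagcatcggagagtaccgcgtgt
Dkc1: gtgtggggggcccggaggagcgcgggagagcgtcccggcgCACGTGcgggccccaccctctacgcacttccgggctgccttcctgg
Pes1: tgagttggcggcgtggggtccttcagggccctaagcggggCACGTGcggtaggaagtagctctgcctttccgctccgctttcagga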

How the data were processed

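RNA from 16 libraries was measured by poly(A)-enriched paired-end sequencing (2 × 150 bp). The authors mapped reads to rn6 and deposited counts per gene, made with featureCounts over exons and not normalized. The study's methods name tophat2 as aligner and the submitters' processing notes name HISAT2 2.1.0. Fragments that map to several places were counted at each, and the use of strand is not stated, so near-identical copies and overlapping antisense genes are uncertain. The members and lists were chosen with earlier results of these data known. Named with the value of every library are Myc, Ubtf, Rrn3, Polr1a, Ncl, Npm1, Fbl and, per role and line, the gene with the largest absolute log2 fold change by pH. Further lists name their 2 largest DEGs of each direction with at least 10 FPM, and growth signalling names all of its DEGs in NRK-52E cells. Heatr1 was not analysed here, and 2 genes of the further lists are not reported here.

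In R 4.3.3, edgeR 4.0.16 (quasi-likelihood, filterByExpr, TMM) and DESeq2 1.42.0 (Wald test) were fitted to the 8 libraries of each comparison, and to all 16 for the interaction, with Benjamini-Hochberg adjustment over all genes tested; DEGs had an adjusted p below 0.01 in both. A standard error is the size of the log2 fold change over the root of edgeR's F. The code was checked on simulated data. Single genes had an exact permutation test of log2(FPM + 1) in Python 3.11.15. Alternatives were DESeq2's size factors, library totals, no filter or 1 CPM in 4 libraries, each tool alone, an adjusted p of 0.05, all 16 libraries in 1 fit, the label number as a covariate or alone, and each library left out.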

Additional observations from a re-analysis of the deposited data

Results flagged for a closer look

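In 10 of the 156 groups of 4 values (39 genes in 4 groups), 1 library lay far from the other 3. The gap to the nearest of them took 0.832 or more of the range of the 4 values, and smaller gaps were not counted. Chance alone gives about 1 in 20 such groups, or 7.8. Library N16 of NRK-49F cells at pH 6.0 accounted for 5 of them, on the low side each time, with 11.1 FPM for Polr1e (the others 13.98 to 14.4), 80.2 FPM for Gnl3 (the others 95.3 to 97.8), 24.9 FPM for Rrp9 (the others 32.9 to 33.6), 45.95 FPM for Bop1 (the others 63.9 to 66.1) and 31.9 FPM for Wdr12 (the others 37.2 to 37.8). N13 of NRK-49F cells at pH 7.4 was low with 49.96 FPM for Ddx21 (the others 57.2 to 58.6) and high with 65.6 FPM for Nop10 (the others 45.9 to 49.1), and N9 of that group was high with 54.4 FPM for Noc2l (the others 51.97 to 52.2). N8 of NRK-52E cells at pH 6.0 was low with 186 FPM for Nop58 (the others 229 to 230.4), and N2 of NRK-52E cells at pH 7.4 was low with 25.4 FPM for Rrs1 (the others 26.1 to 26.2). N2, N13 and N16 carry the label number 21, N8 carries 22 and N9 carries 20.

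The pH effect differed between the lines for 15 genes, as log2 fold change in NRK-52E minus that in NRK-49F cells with its SE (edgeR and DESeq2, adjusted p below 0.01 in both). It was negative, or more positive in NRK-49F cells, with -2.55 ± 0.23 for Myc, -1.25 ± 0.14 for Utp20, -1.21 ± 0.19 for Bop1, -1.01 ± 0.14 for Tsr1, -0.98 ± 0.19 for Gar1, -0.91 ± 0.16 for Noc2l, -0.87 ± 0.13 for Ubtf, -0.76 ± 0.15 for Polr1b, -0.73 ± 0.18 for Fbl and -0.63 ± 0.16 for Nip7. It was positive with 1.04 ± 0.13 for Rrn3, 0.69 ± 0.13 for Wdr75, 0.62 ± 0.14 for Dkc1, 0.53 ± 0.14 for Ncl and 0.44 ± 0.13 for Pes1. The causes of these differences were not tested.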

How the results depend on the processing

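With library totals in place of TMM, 8 genes in place of 14 were higher in NRK-52E cells, the median log2 fold change of the 39 was -0.0888 in place of 0.12, 2 in place of 5 had a more positive pH effect in NRK-52E cells, and 5 in place of 11 were lower in NRK-52E cells at pH 7.4. With the label number as a covariate, which leaves 2 libraries against 2 of number 21 for the line difference, 8 in place of 14 were lower in NRK-52E cells at pH 6.0. Within label number 21 alone, 8 were higher in NRK-52E cells, and in NRK-49F cells 4 were higher, 1 was lower and the median was 0.33; within number 22, 7 were higher and 2 lower in NRK-52E cells. The comparisons within a number have 2 libraries against 2 as well, and the shares of all genes called in them are not given here.

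Leaving out 1 library at a time, the genes higher at pH 6.0 numbered 9 to 14 in NRK-52E and 16 to 24 in NRK-49F cells, and those lower 5 to 8 and 2 to 3. The medians were 0.10 to 0.15 and 0.40 to 0.55, the interactions 3 to 5 positive and 10 to 13 negative, and the genes higher and lower in NRK-52E cells 12 to 14 and 9 to 13 at pH 7.4, and 6 to 8 and 13 to 17 at pH 6.0. No gene that was a DEG by pH within a line had the opposite sign there under any alternative; between the lines Nop2 did at pH 7.4 with library totals. Calls were lost in 28 and 17 fits of a gene without a library in NRK-52E and NRK-49F cells, each with fewer libraries, and in 27 and 20 under other settings. No paired analysis was possible because no replicate number (N1 to N16) occurs in 2 groups, and the labels do not tell which NRK-52E and NRK-49F libraries shared a well. The label number, shared between pH groups, was fitted as a covariate. The counts are uncertain where a gene has near-identical copies. Levels are relative to the counted fragments of each poly(A)-enriched library, scaled with TMM, so a change in all RNA of a cell would not be seen.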
